A study of Mus musculus with 3 samples.

Results

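Gm17494, Gm17821, Gm48418 and Gm47967 are 4 genes annotated as non-coding in GENCODE M21, 1 of them as a processed transcript and 3 as processed pseudogenes. They were chosen by the length and the strand of their reads in earlier counts of these same libraries, where the reads were long and mostly of 1 strand, so strand and window values below are descriptions. They are 4 of 26400 annotated genes with at least 1 matched small RNA read. A read was assigned to a gene when the first 20 nt of its trimmed insert matched a transcript of that gene perfectly, on either strand. The data are small RNAs of mouse oocytes at the fully grown stage, taken from females killed 48 h after an injection of 5 IU of PMSG, a hormone that makes follicles grow. Total RNA was cut from polyacrylamide gels in a long window (24-30 nt), a short window (19-24 nt) or a wide window (19-30 nt), and each window was sequenced as 1 library on an Illumina 1G instrument. The labels name no strain, genotype, age or number of animals, and no untreated or mutant oocytes are among the groups. With 1 library per window no difference has a replicate check, and every interval below is a 95% interval that covers counting error only, because PCR copies of 1 molecule cannot be recognised.

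Piwi-interacting RNAs (piRNAs) are longer than microRNAs and siRNAs, often begin with U, and commonly derive from transposon sequence and its remnants. In the ping-pong cycle, Piwi proteins cut transcripts so that sense and antisense piRNAs overlap by their first bases, which pairs a first U on one strand with an A at base 10 on the other. Breakdown products of stable RNAs such as tRNAs or Y RNAs, by contrast, come from the strand of the gene and often repeat a few ends.

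The sequences that carried most uniquely matching reads, meaning reads whose start occurred at 1 place among all annotated transcripts, are shown first, since they differ in kind between the loci. All coordinates are on GRCm38, the first and the 10th base of each read are in capitals, and the letters are those of the genome strand the read came from, 26 bases long.
Gm17494 leading end, chr3:122292949-122292974, minus strand, sense: TtccgggttCgagtcccggcggagtc
Gm17821 leading end, chr12:67668648-67668673, plus strand, antisense: TagtgtttcTctgcctggtggtagct
Gm17821 next end, chr12:67668394-67668419, plus strand, antisense: TagtagtagCagagccatttgtaagc
Gm48418 leading end, chr12:63929325-63929350, minus strand, antisense: TgactgcttCtaattctttagggaat
Gm48418 next end, chr12:63931725-63931750, minus strand, antisense: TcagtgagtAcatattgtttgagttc
Gm47967 leading end, chr10:54212461-54212486, minus strand, antisense: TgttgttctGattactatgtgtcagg
Gm47967 next end, chr10:54212460-54212485, minus strand, antisense: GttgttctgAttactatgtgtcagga
All of these lie in exons of the annotated genes. All but the next end of Gm47967 begin with T (U in the RNA), and A at base 10 appears only in the next ends of Gm48418 and Gm47967.

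Before the loci are described, the libraries need a short account. Of 1484509 long-window, 764539 short-window and 943811 wide-window reads, 346385, 317251 and 146988 matched an annotated transcript. A level is given as RPM, reads scaled to 1000000 matched reads. Where no read was seen, 3 counts set the upper limit, at 8.66, 9.46 and 20.4 RPM in that order. Oocyte markers gave few small RNA reads, 34.5, 25.7 and 30.2 in all over 7 genes (Zp1, Zp2, Zp3, Gdf9, Bmp15, Oosp1 and Nlrp5). The granulosa list, which holds the microRNA genes Mir202 and Mir503 beside 4 coding genes, gave 276, 9218 and 49.1 reads, and the blood list, which holds Mir451a, gave 131, 3410 and 15. Of the blood list, Hba-a1 was at 0 in every library. Reads of the granulosa and blood lists lay mostly in the short-window library, where the microRNA genes Mir202 (3656), Mir503 (5540) and Mir451a (3108) held most of them. The coding granulosa genes did not follow this. Inha had 22 long- and 7 short-window reads, Inhba 24.7 and 15.1, Foxl2 3.5 and 0.0283, and Cyp19a1 0.0256 and 0. Reads of the oocyte list, all of coding genes, did not lie mostly in the short window either. The part of these lists in the values of the 4 loci was not tested. The wide-window library also differs in read length (36 nt against 26 nt in both others), which cannot be told apart from its window.

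All 4 loci were highest in the long-window library, in which each made up between 1563 and 2150 RPM. A read with several places was shared equally among them. Gm17494 had 569 such weighted reads in the long-window library, 18.2 in the short-window library and 34.5 in the wide-window library, or 1643, 57.2 and 234.5 RPM. Gm17821 had 541.5, 38.1 and 64.5 reads in the same order, or 1563, 120 and 439 RPM. Gm48418 had 745, 38.0 and 100.95 reads, or 2150, 120 and 687 RPM, and was the most abundant of the 4 in the long- and wide-window libraries. Gm47967 had 561, 17.2 and 40.7 reads, or 1619, 54.1 and 277 RPM. In the long-window library the counting intervals of Gm17494 (1511 to 1784 RPM), Gm47967 (1488 to 1759 RPM) and Gm17821 (1434 to 1701 RPM) overlap, and that of Gm48418 (1998 to 2310 RPM) lies above them.

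The long-window level over the short-window level was 29.9 for Gm47967 (18.6 to 51.6), 28.7 for Gm17494 (18.04 to 48.7), 17.9 for Gm48418 (12.9 to 25.5) and 13.0 for Gm17821 (9.36 to 18.6). These intervals overlap in part, so the order of neighbouring loci is not settled by the counts. Over the 4 loci together the ratio was 19.8 (16.4 to 24.2) against the short-window library and 4.26 (3.73 to 4.88) against the wide-window library. With weighted reads all 4 of 4 loci passed a ratio of 2 against the short-window library. With each distinct insert counted once, Gm17494 (1.34, 0.663 to 2.75) and Gm47967 (1.98, 0.979 to 4.19) did not pass it. These counts are of unlike units, because longer inserts could not be sized in these libraries and were told apart by start alone. At Gm48418 776 distinct inserts lay on 728 starts in the long-window library, and 746 on 543 in the short-window library. The ratios of distinct inserts therefore cannot decide whether a locus passes. With every match in full Gm17494 did not pass the ratio of 2 (1.71). With weighted reads 71.8% passed it of the 727 genes outside structural and small RNA classes that had at least 100 reads, and since the loci were chosen for long reads nothing is read from that count. The median ratio over the 727 genes was 4.82. By rank, Gm47967 was number 12, Gm17494 number 15, Gm48418 number 40 and Gm17821 number 91 of the 727.

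**Figure D1:**
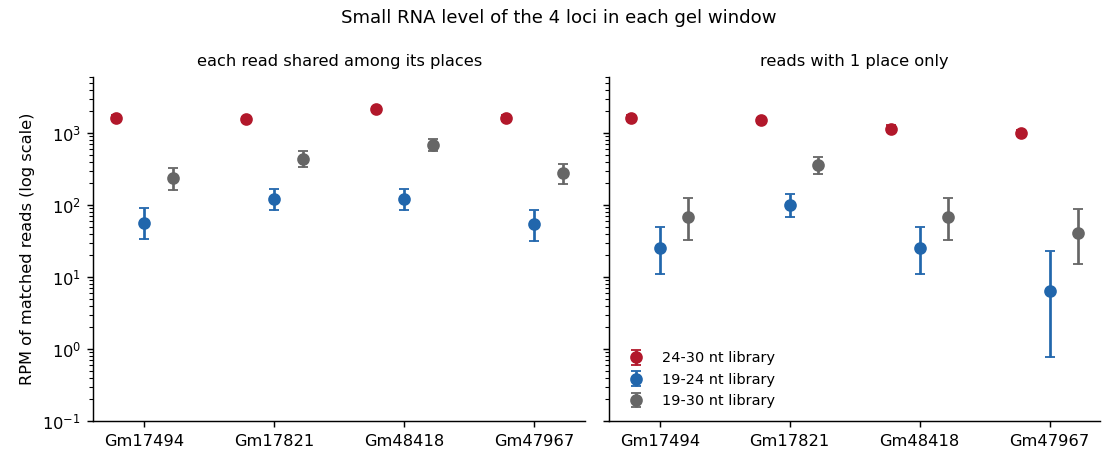
Level of each locus (RPM of matched reads, log scale) in the long-, short- and wide-window libraries, 1 library each, with reads shared among their places (left) or only reads with 1 place (right); bars are 95% Poisson intervals. Every locus was highest in the long-window library, between 1563 and 2150 RPM with shared reads, and the wide-window value lay between the others.

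How much of each count belongs to its locus alone differed widely. At Gm17821 155 of 190 distinct read starts had 1 place among the annotated transcripts, at Gm17494 25 of 329, at Gm48418 31 of 1384 and at Gm47967 13 of 513. A start had a median of 1 place at Gm17821, 29 at Gm17494, 50 at Gm48418 and 29 at Gm47967. Uniquely matching reads numbered 563, 8 and 10 at Gm17494 in the long-, short- and wide-window libraries. At Gm17821 they numbered 521, 32 and 53, at Gm48418 401, 8 and 10, and at Gm47967 350, 2 and 6. A place was counted among transcripts, so a start called unique may still occur elsewhere in the genome. No 20 nt start was shared between any pair of the 4 loci.

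The strand label held for uniquely matching reads in the long-window library, and held less there at Gm48418 and Gm47967 when all matching reads were counted. In the long-window library all 563 unique reads of Gm17494 were sense, and all 521 of Gm17821 were antisense. Of the unique reads of Gm48418 97.3% were antisense (390 of 401), and of those of Gm47967 99.1% (347 of 350). When every matching read was counted in full, 75.0% of 15553 reads at Gm48418 and 68.0% of 5186 reads at Gm47967 were antisense in that library, and 98.0% of 1156 reads at Gm17494 were sense. Matches to Gm48418 and Gm47967 therefore lay on both strands, although reads with several places need not come from these loci. At Gm17494 the sense share counted in full was lower in the other windows, 87.7% of 618 short-window and 75.0% of 779 wide-window reads. At Gm17821 all 562 reads counted in full were antisense in the long-window library, but 12.8% of 47 were sense in the short-window library and 29.0% of 93 in the wide-window library. Over weighted reads of all libraries 2 of 4 loci had at least 95% of reads on 1 strand, against 12.4% of the 727 genes, a count the choice of the loci used and from which nothing is read.

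**Figure D2:**
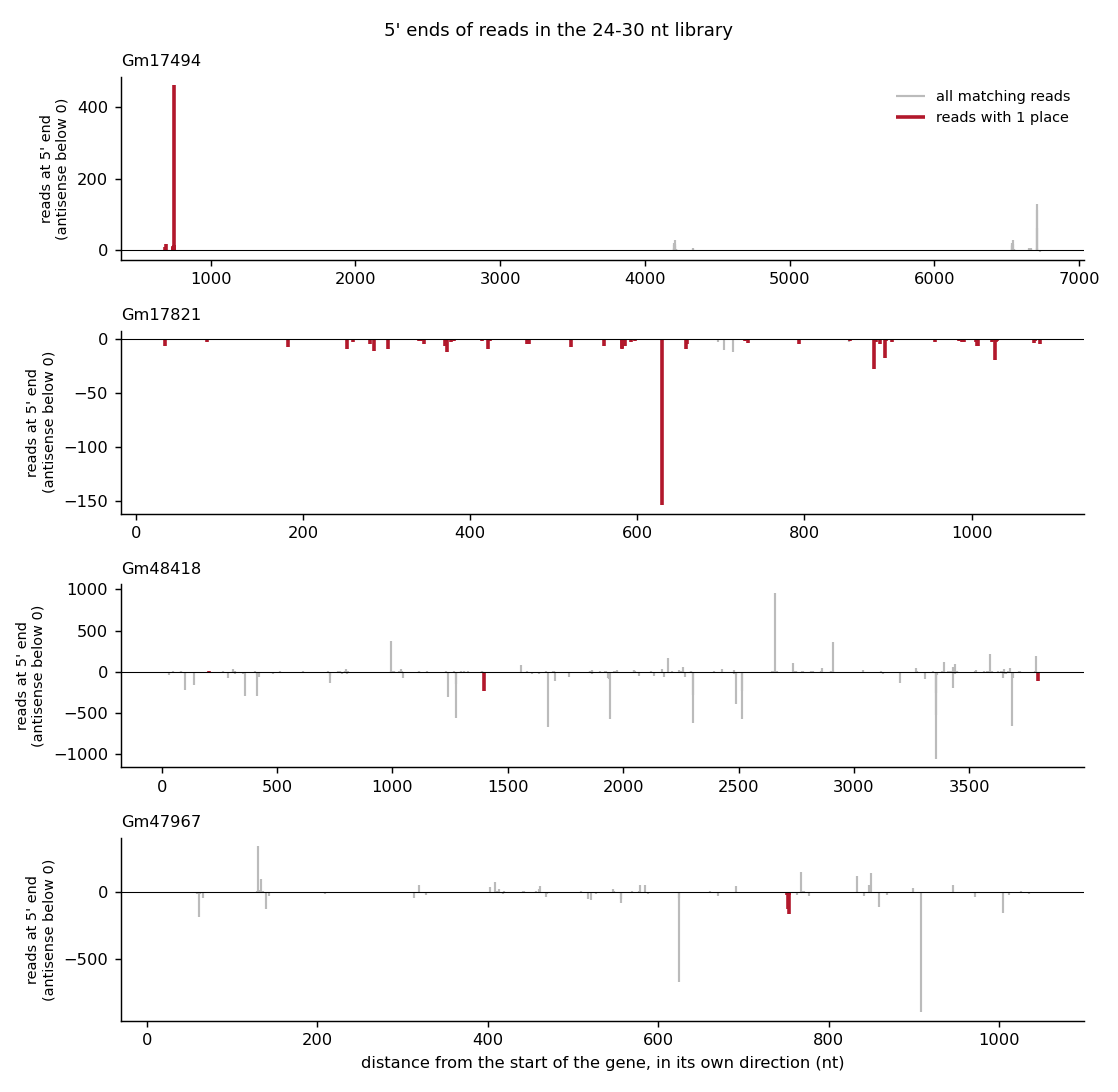
Number of reads whose 5' end falls at each position of the 4 loci in the long-window library, plotted by distance from the gene's start (nt), sense above and antisense below 0; grey, all matching reads counted in full, red, reads with 1 place. For Gm17494 and Gm17821 only the exon with most reads is drawn. Gm17494 shows 1 dominant sense end (459 reads), Gm17821 many antisense ends, and Gm48418 and Gm47967 ends on both strands with unique reads at few of them.

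At Gm17494 every uniquely matching read began in or just before 1 short stretch. It lies at chr3:122292948-122293032, minus strand, 85 bases inside exon 1 of transcript Gm17494-202 (chr3:122286877-122293720), and it can fold at its ends like the acceptor stem of a tRNA. It is printed because all the unique reads start in it or within 20 nt before it, with the 2 strands of the stem and the T-arm motif GGTTCGAGTCC in capitals. That motif is part of the internal promoter of tRNA genes.
Gm17494 stretch: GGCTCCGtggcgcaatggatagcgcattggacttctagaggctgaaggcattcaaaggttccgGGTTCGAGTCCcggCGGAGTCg
The stem strands, bases 1 to 7 and 78 to 84, form 7 pairs, 1 of them a G:U pair. The annotation used lists no tRNA here, and copies elsewhere in the genome were not searched. The microRNA gene Mir760, which lies in the same exon, had 0 reads in all libraries.

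The leading 5' end of Gm17494 lies at base 59 of the stretch, so a read from there to the end of the stretch is 27 nt, or 30 nt with the CCA that is added to mature tRNAs. It held 459 of 563 unique reads (81.5%) in the long-window library, 0 of 8 in the short-window library and 8 of 10 in the wide-window library. All 8 of its inserts in the wide-window library were 30 nt long, 4 ended in CCA and 3 were identical to the following sequence, in which the capitals mark the bases absent from the genome at that place.
Gm17494 fragment with CCA: ttccgggttcgagtcccggcggagtcgCCA
Reads that held the last 12 bases of the stretch, wherever they began, were followed by CCA in 2 of 2 cases in the long-window library, in 16 of 31 in the short-window library and in 10 of 25 in the wide-window library. In none of these reads did the next 3 bases follow the genome, which reads GAA there. The next 2 bases were CC in 2, 22 and 23 reads in the same order, and a read ending in CC is followed by the C of the linker. Such reads can come from any gene that shares those 12 bases.

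Ends were few at this locus. The 563 unique reads of the long-window library fell on 18 positions, with an effective number of ends (inverse Simpson index) of 1.50 and 19 distinct inserts, 3.37 per 100 reads. Within 5 nt of the leading end lay 92.4% of the unique reads of all libraries. A further 18 reads of the long-window library and 1 of the short-window library began at base 1 of the stretch. The first base was U in 82.9% (79.6 to 85.8) and base 10 was A in 0 of 563 (0% to 0.678%). The high share of U is that of 1 repeated end. The reads of Gm17494 with several places were of another kind, led by starts in a run of A and by sequence with 671 or 719 places; counted in full they brought the locus to 1156, 618 and 779 reads in the long-, short- and wide-window libraries, and 22 nt was then the commonest length. Counted so, first-base U was 53.1% and base 10 A 33.1% of the 1156 long-window reads.

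Gm17821 was read from the opposite strand, nearly from one end of the annotation to the other. Its 5' ends ran from 67658544 to 67669243 on chromosome 12, over both exons, and none of its 606 unique reads was sense. In the long-window library 498 of 521 unique reads lay in exon 1 (1097 nt) on 99 ends and 23 in exon 2 (596 nt) on 14 ends. In the short-window library exon 1 held 14 reads and exon 2 held 18, and in the wide-window library 19 and 34. Exon 1 thus held most reads in the long window alone, although the exons were not tested against each other.

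The 521 reads of the long-window library began at 113 positions, and the effective number of ends was 10.2. The leading end held 154 reads (29.6%), 4 in the short-window library and 1 in the wide-window library, and no other end lay within 5 nt of it. There were 22.8 distinct inserts per 100 reads, against 3.37 at Gm17494. Without lengths from 23 nt up these are nearly counts of starts. Gm17821 had 119 distinct inserts on 115 starts, and Gm17494 19 on 19. The first base was U in 94.2% (91.9 to 95.9), and base 10 was A in 13.8% (11.1 to 17.1). No sense read stood against them in that library, so no opposite-strand overlap of any size from 1 to 20 nt was found there.

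Gm17821 shared 28 of 185 distinct 20 nt starts (15.1%) with Dcaf5, a coding gene on the same chromosome, 17 of them antisense to Dcaf5 and 11 sense. Dcaf5 itself had 30.5, 20 and 64 weighted reads in the long-, short- and wide-window libraries, 67.2% of them sense, and its long- over short-window ratio was 1.40. Counting every match in full added sense reads to Gm17821, 0 in the long-window library, 6 in the short-window library and 27 in the wide-window library. Of these 27, 24 were 20 to 23 nt long and 0 were 25 to 30 nt long. Counted so, 61.9% of 63 inserts of 20 to 23 nt and all 18 inserts of 25 to 30 nt were antisense. None of the sense reads had 1 place, so which copy produced them cannot be told apart.

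Length could be measured only in the wide-window library, whose 36 nt reads run past the end of the insert. At Gm17821 30 of 53 unique inserts were 20 to 23 nt (56.6%, 43.3 to 69.1) and 17 were 25 to 30 nt (32.1%, 21.1 to 45.5), with 22 nt the commonest. The 25 to 30 nt inserts began with U in 94.1% (73.0 to 99.0) and the 20 to 23 nt inserts in 63.3% (45.5 to 78.1), intervals that overlap. At Gm17494 9 of 10 unique inserts were 25 to 30 nt and 0 were 20 to 23 nt. Over all other reads outside structural RNA genes 13.0% were 25 to 30 nt and 79.0% were 20 to 23 nt. When all matching reads were counted in full, 25 to 30 nt inserts made up 34.0% (32.5 to 35.6) of 3633 at Gm48418 and 33.4% (30.4 to 36.7) of 864 at Gm47967. Both loci held more 20 to 23 nt inserts, 58.4% and 60.0%, with a peak at 22 nt. Unique inserts were too few there for a clear split, 4 of 25 to 30 nt and 4 of 20 to 23 nt among 10 at Gm48418, and 5 and 0 among 6 at Gm47967. Over the 4 loci together 44.3% of 79 unique inserts were 25 to 30 nt (33.9 to 55.3) and 43.0% were 20 to 23 nt (32.7 to 54.0). With weighted reads all 4 loci had more 20 to 23 nt than 25 to 30 nt inserts, Gm17494 included (62.4% and 29.8%). The 25 to 30 nt share of Gm17494 rested on the trimming rule: it was 5.83% with fewer linker mismatches allowed and 4.54% with a longer linker overlap, which leaves no room in the read to size an insert of 29 or 30 nt.

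**Figure D3:**
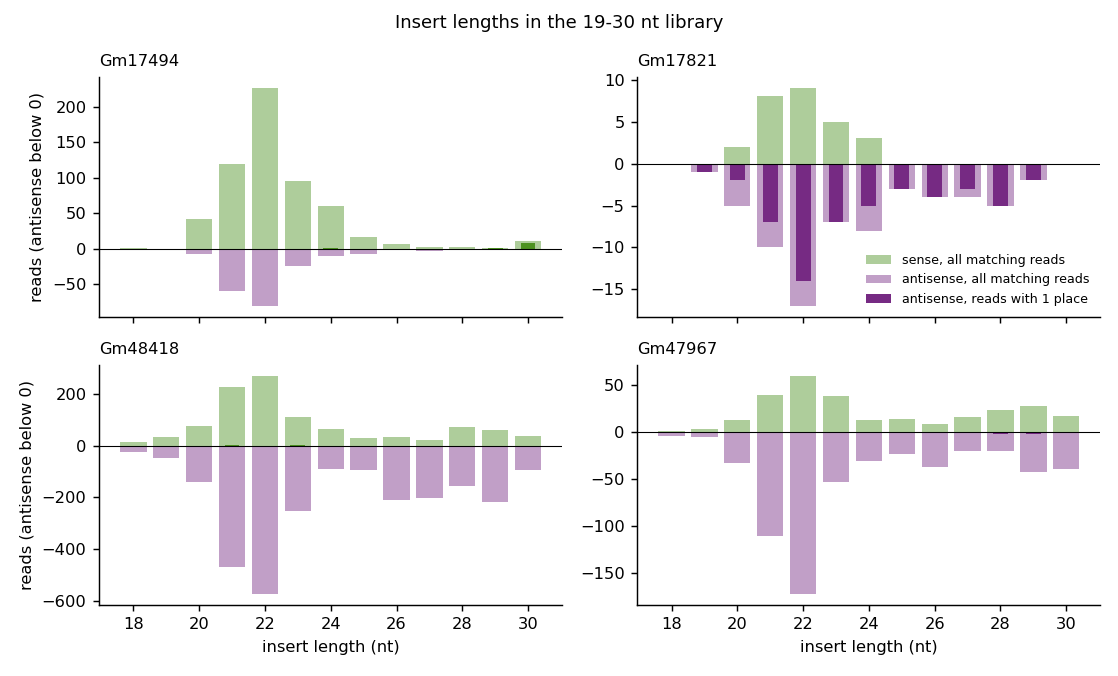
Insert length (nt) of reads in the wide-window library at each locus, sense above and antisense below 0; pale bars, all matching reads in full, dark bars, reads with 1 place. The unique inserts of Gm17494 sit at 30 nt (8 of 10), a length that rests on the trimming rule, and those of Gm17821 peak at 22 nt. At Gm48418 and Gm47967 a peak at 22 nt stands beside a second group at 25 to 30 nt.

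Gm48418 and Gm47967 consisted mostly of sequence found at many annotated places. Of the distinct 20 nt starts of Gm48418 59.2% occurred also in D10Wsu102e, a coding gene rich in small RNAs here, and 73.6% in the lincRNA AC160336.1, which also held 68.7% of those of Gm47967. Unique reads sat at few ends. At Gm48418 the end at 63929350 held 234, 0 and 1 unique reads in the long-, short- and wide-window libraries, and the end at 63931750, close to the 3' end of the gene, held 109, 4 and 2. At Gm47967 a cluster of ends within 5 nt of 54212486 held 97.8% of 358 unique reads. The long-window library gave an effective number of 2.40 and 2.78 unique ends at these 2 loci, beside 1.50 at Gm17494 and 10.2 at Gm17821. Only 31 of 1384 starts of Gm48418 and 13 of 513 of Gm47967 had 1 place. That limits the number of unique ends, so nothing is read from this comparison. The unique reads of that library began with U in 90.3% at Gm48418 and 60.0% at Gm47967, and had A at base 10 in 35.7% and 40.6%.

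Counted in full, however, the same loci had many ends. In the long-window library the reads of Gm48418 began at 448 antisense and 263 sense positions, and those of Gm47967 at 148 antisense and 114 sense positions. The effective number of ends was 40.2 at Gm48418 and 16.5 at Gm47967, beside 5.35 at Gm17494 and 11.7 at Gm17821 counted in the same way. The leading end held 6.82% of the reads of Gm48418 and 17.3% of those of Gm47967. Which of the many copies produced these reads cannot be told apart by the match.

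The strands of these loci differed in base composition. In the long-window library antisense reads of Gm48418 began with U in 90.4% (89.8 to 90.9) and had A at base 10 in 52.9% (52.0 to 53.8). Its sense reads began with U in 70.4% (68.9 to 71.8) and had A at base 10 in 80.0% (78.7 to 81.2). At Gm47967 antisense reads began with U in 92.4% (91.5 to 93.3) and had A at base 10 in 44.8% (43.2 to 46.5). Sense reads there began with U in 35.6% (33.3 to 37.9) and had A at base 10 in 88.6% (87.0 to 90.0). At both loci the antisense strand led in first-base U and the sense strand in base 10 A. All other reads outside structural RNA genes had 76.9% first-base U and 37.0% base 10 A in that library. A few ends repeat in these counts: the leading sense end of Gm48418 alone held 24.7% of its sense reads.

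**Figure D4:**
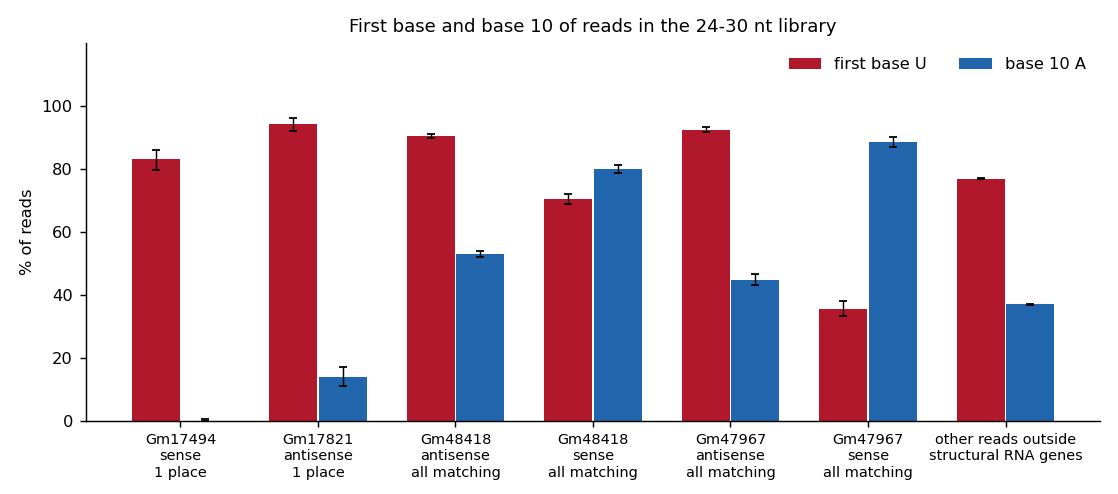
Share of reads (%) with first base U (red) and with A at base 10 (blue) in the long-window library, by locus and strand, beside all other reads outside structural RNA genes; bars are 95% Wilson intervals. Among reads with 1 place base 10 A was 0 of 563 at Gm17494 and 13.8% at Gm17821, and among all matching reads in full it was 80.0% and 88.6% on the sense strands of Gm48418 and Gm47967. At Gm17821 the leading end, with T at base 10, held 29.6% of the reads.

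Sense and antisense reads of Gm48418 and Gm47967 overlapped most often by 10 nt in the long-window library. At Gm48418 123 of 1176 pairs of opposite ends with overlaps of 1 to 20 nt overlapped by 10 nt, against a median of 54 and a maximum of 82 pairs at the other overlaps. Counting for each pair the smaller of its read numbers, 731 reads were paired at 10 nt, against at most 190 at any other overlap. At Gm47967 50 of 436 pairs overlapped by 10 nt, against a median of 22 and a maximum of 28, with 564 paired reads against at most 137. The same overlap led among 25 to 30 nt inserts of the wide-window library. There 21 reads were paired against at most 12 at Gm48418, and 29 against at most 4 at Gm47967. Pairs of ends numbered 13 against at most 9 and 8 against at most 3. At Gm47967 1 pair of ends, with 16 antisense and 19 sense reads, made up most of the 29. Among 20 to 23 nt inserts 10 nt did not lead. There 77 reads were paired at 10 nt against at most 115 at Gm48418, and 15 against at most 28 at Gm47967. In the short-window library 64 reads were paired at 10 nt against at most 68 at Gm48418, and 15 against at most 14 at Gm47967, so 10 nt led there by 1 read at Gm47967. By pairs of ends 10 nt led at neither locus in that library, with 41 against at most 48 at Gm48418 and 10 against at most 11 at Gm47967.

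The pairs with most reads at 10 nt show how the ends face each other. Each line gives the first 20 bases of a read in its own direction, and the 10 capitals are the reverse complement of the capitals of its partner.
Gm48418 antisense, chr12:63931731-63931750, minus strand: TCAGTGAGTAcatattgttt
Gm48418 sense, chr12:63931741-63931760, plus strand: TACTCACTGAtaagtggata
Gm47967 antisense, chr10:54211854-54211873, minus strand: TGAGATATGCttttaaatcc
Gm47967 sense, chr10:54211864-54211883, plus strand: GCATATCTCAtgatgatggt
Gm47967 antisense, second pair, chr10:54212573-54212592, minus strand: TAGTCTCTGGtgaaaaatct
Gm47967 sense, second pair, chr10:54212583-54212602, plus strand: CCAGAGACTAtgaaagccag
In the long-window library the antisense end of Gm48418 held 109 reads, all at 1 place, and its sense partner 189 reads whose start has 116 places. The ends of Gm47967 held 127 antisense and 341 sense reads in the first pair and 109 and 144 in the second, with 16 to 91 places each. With unique reads alone no pair at 10 nt was left at either locus, so each such pair includes reads that match several places. Unique sense reads numbered only 11 at Gm48418 and 3 at Gm47967, and 1 pair was left at any overlap. Unique reads therefore cannot decide which overlap leads.

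**Figure D5:**
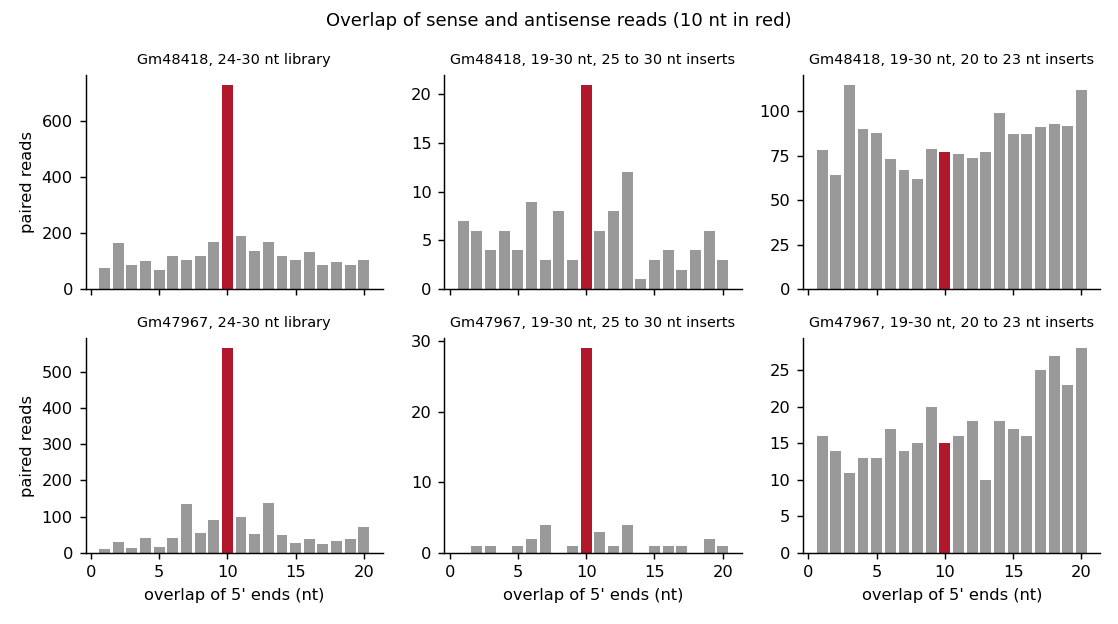
Paired reads (the smaller read number of each pair of opposite 5' ends) by overlap from 1 to 20 nt at Gm48418 (top) and Gm47967 (bottom), all matching reads in full, in the long-window library (left) and among 25 to 30 nt (middle) and 20 to 23 nt inserts (right) of the wide-window library; 10 nt in red. The 10 nt bar is the tallest in the left and middle panels (731 and 564 paired reads on the left) and not in the right panels.

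Stable RNA genes offer a scale for the question of fragments. Rny1 and Rny3, which encode Y RNAs, were all sense, with first-base U in 17.4% and 1.66% and long- over short-window ratios of 43.3 and 7.23. Rn7sk, Rn7s1, Rn7s2, Vaultrc5, Rmrp and Rpph1 were at least 99.8% sense with first-base U between 0.199% and 20.95%, and Terc had 1 read. The leading end held 61.4% of the reads at Rny1, 94.1% at Rny3, 96.0% at the lincRNA entry of Rmrp, and 75.1% at Gm17494. At Rn7sk, Rn7s1, Rn7s2, Vaultrc5, Rpph1 and the ribozyme entry of Rmrp it held between 10.9% and 22.9%, beside 24.7% to 26.6% at the other 3 loci, so the share of the leading end did not set all stable RNAs apart from these loci. All unique reads of Gm17494 were sense, and its first-base U share lay above all of theirs except the single read of Terc. Two-strand siRNA genes lay at the other end: Pdzd11, Kif4, Optn, Cwc22 and Trim71 had ratios between 0.0141 and 0.0708 and first-base U between 48.8% and 64.1%. D10Wsu102e, with a ratio of 3.81, 61.8% sense reads and 72.4% first-base U, had reads on 15422 ends. These comparisons are of values, since no test is possible with 1 library per window.

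Set against the 727 genes, the 4 loci spread widely. With weighted reads of all libraries, first-base U was 89.9% at Gm17821 (number 27 of 727), 85.4% at Gm48418 (number 46), 79.6% at Gm17494 (number 151) and 68.6% at Gm47967 (number 413), beside a median of 71.1%. Thus 3 of 4 passed 70%, as did 53.2% of the genes. The leading end held 75.1% of weighted reads at Gm17494, 26.6% at Gm48418, 26.2% at Gm47967 and 24.7% at Gm17821, beside a median of 11.2%. None of the 4 had a leading end under 20%, which 74.3% of the genes did.

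The 5 genes whose window shares, sense share and first-base U share were closest to those of the 4 loci together were Gm48054, Gm48216, Gm47628, Gm17132 and Gm37404, with summed differences of 0.143, 0.159, 0.208, 0.217 and 0.222 over 5 shares in 3 libraries. Of these, 4 are annotated as pseudogenes. The sense share of the 4 loci together was 30.1%, a value that no locus had alone. Gm17494 had 97.3%, Gm17821 1.61%, Gm48418 16.6% and Gm47967 11.4%. The 5 genes are therefore close to the pool and need not resemble any single locus. Gm17132 held 68.0% of the distinct 20 nt starts of Gm47967, so its likeness is in part the same reads.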

How the data were processed

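The deposited values, per the file headers, are single reads with a quality value per base, not counts; of the authors' processing only gel windows, adapter ligation and RT-PCR are stated, per the labels, and no aligner is named in those labels. Reads were 26 nt long in the long and short windows and 36 nt in the wide one. From both kinds the linker CTGTAGGCACCATCAAT, the consensus of the 36 nt reads, was removed (at least 4 or 6 bases, at most 20% mismatches). Inserts from 18 nt were kept, and 36 nt reads with no linker found by base 30 set aside. In 26 nt reads inserts of 23 nt or more could not be sized. This left 1430961, 686288 and 438981 inserts. The first 20 nt had to match perfectly 1 of 141767 GENCODE M21 transcripts (GRCm38) on either strand, at most 1000 places, each weighted by 1 over the number of places; shorter inserts were matched whole. Matched were 24.2%, 46.2% and 33.5%. Nuclear tRNA genes and most rRNA are not in that reference, so the RPM denominator leaves them out. Intervals are Poisson for counts, Wilson for shares and conditional binomial for ratios. Python 3.11.15, NumPy 2.4.6, pandas 2.3.3 and SciPy 1.17.1 were used, and trimming and matching were tested on simulated reads. Promoter and protein sequences of the loci were not used here.

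The 4 loci, the gene lists and the thresholds (a ratio of 2, 95% on 1 strand, 70% first-base U, a leading end under 20%, at least 100 reads) were chosen with earlier results of these data known. Named genes are the 4 loci, the listed genes and the 5 genes with the smallest summed difference from the loci in window shares, sense share and first-base U; Dcaf5, Mir760 and AC160336.1 were chosen after their values were seen. The stretch in Gm17494 was found by a search around its leading 5' end, after that end was known, for 7 paired bases that close a T-arm motif. Tried alternatives were an 18 nt match, only reads with 1 place, distinct inserts, every match in full, 2 other denominators, stricter trimming and leaving out each locus's leading insert.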

Additional observations from a re-analysis of the deposited data

Results flagged for a closer look

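The wide-window library held 308575 reads in which no linker was found by base 30, and these were used in no comparison. That class depends on the linker rule: it held 323039 reads with a longer overlap and 555810 with at most 10% mismatches, so not every such insert need be longer than 30 nt. Of these reads 53532 matched an annotated transcript. Reads with 1 place numbered 4 at Gm17494, 18 at Gm17821, 12 at Gm48418 and 5 at Gm47967, which is above the 3 counts that a count of 0 allows. These 4 results are listed because the inserts of these reads were not sized. How many other genes pass 3 counts among them was not computed, so nothing is read from passing that limit. The 4 reads of Gm17494 were sense and began at 1 end, and all 18 of Gm17821 were antisense on 15 ends, 83.3% of them with first-base U. At Gm48418 10 of 12 and at Gm47967 4 of 5 were antisense. A cause was not tested.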

How the results depend on the processing

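No paired analysis was possible because each window has 1 library. For the 4 loci together the long- over short-window ratio stayed above 1 under all 6 alternatives: it was 33.6 with only reads of 1 place, 2.51 with distinct inserts, 9.03 with every match in full, 10.4 per usable insert and 4.69 per matched read outside structural RNA. Against the wide-window library it was 9.86, 2.001, 1.77 and 3.08 under the first 4 of these. At Gm17494 alone every match in full reversed that ratio to 0.630 (0.575 to 0.690), its reads with many places being commoner in the wide-window library. The ratios of 2.51 and 2.001 with distinct inserts compare unlike units. Longer inserts were told apart by start alone in the long- and short-window libraries, and by length too in the wide-window library. These ratios are therefore not a like-for-like check. Only reads with 1 place gave summed levels of 5298 RPM in the long-window, 158 RPM in the short-window and 537 RPM in the wide-window library, where weighted reads gave 6975, 352 and 1637 RPM. Distinct inserts gave 5160, 2054 and 2578 RPM, every match in full 64833, 7184 and 36527 RPM, usable inserts as denominator 1688, 162 and 548 RPM, and matched reads outside structural RNA 8882, 1895 and 2077 RPM. An 18 nt match gave 6588 RPM in the long-window library.

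In the long-window library distinct inserts moved the pooled sense share to 18.8% from 30.5%, first-base U to 69.8% from 83.5%, base 10 A to 30.7% from 27.5% and the summed share of the leading ends to 3.52% from 41.8%. Base 10 A was 25.6% with an 18 nt match, 19.5% with reads of 1 place and 47.3% without the leading inserts, and first-base U without these was 71.7%. The leading ends held 55.0% of reads with 1 place and 20.3% without the leading insert. Every match in full, added after the data were seen, gave 81.3% first-base U, 57.0% base 10 A and 11.5% at the leading ends. The share of 25 to 30 nt inserts in the wide-window library, 31.7%, was 44.3% with reads of 1 place, 23.6% with distinct inserts, 21.3% with a longer linker overlap and 26.1% with fewer linker mismatches. Opposite-strand pairs at 10 nt made up 10.6% of pairs with every match in full. With reads of 1 place they were 0, but only 1 pair was left at any overlap, at Gm48418 by 14 nt. That 0 therefore cannot decide whether 10 nt leads among such reads. The causes of these moves were not tested. Depth limits the unique reads of the short-window library (50 in all) and the lengths (79 in all).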
